A study of Mus musculus with 6 samples.

Results

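The genes described here are 8 members of the antigen presentation pathways that were picked by symbol from the 15953 genes of a mouse liver table, and all 8 were found. Class I is represented by H2-K1, H2-D1, B2m and Tap1, and class II by H2-Aa, H2-Ab1, H2-Eb1 and Cd74. RNA sequencing was done on livers of C57BL/6 mice, 3 of the wild type genotype and 3 with the genotype Cgref1 KO. The labels name hepatocytes as the cell type and liver as the tissue. They call the samples biological replicates without further detail, so that p-values measure the spread between these samples. The sources used here do not give age, sex, treatment or the position of the deletion.

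Libraries held 17627734 to 18366443 estimated counts. Cgref1 had 7, 7 and 19 counts in wild type and 7, 12 and 10 counts in the Cgref1 KO libraries, so the transcript does not check the labels and the latter are called knockout-labelled throughout. Markers of liver cells other than hepatocytes were present: 12 Kupffer cell (liver macrophage) genes summed to 5745 to 7405 counts per library and 9 sinusoidal endothelial genes to 5273 to 6620 counts. In a bulk library, fewer cells of a type and less RNA per cell cannot be told apart. Of 15 intestinal epithelial genes, 4 (Fabp2, Apoa4, Lgals4 and Tff3) were above 0 in every library. The summed CPM of all 15 overlapped between groups (119.9 to 191.7 in wild type, 138.3 to 182.1 in knockout-labelled libraries). That sum came mostly from the 4, with 2248 to 3292 counts per library, so it says little about the other 11. Apoa4 and Tff3 had positive log2 fold changes (0.72 and 0.96) and Fabp2 and Lgals4 negative ones (-0.53 and -0.75), none past the adjusted threshold. The other 11 genes were at 0 in at least 1 library, a split made with their counts in view, and had 150, 9 and 222 counts together in the wild type libraries (replicates 1, 2 and 3) against 0, 0 and 3 in the knockout-labelled ones.

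Class I molecules show peptides from the cell's own cytosol to CD8 T cells, and nearly every nucleated cell carries them. A heavy chain (encoded by H2-K1 or H2-D1) pairs with beta 2-microglobulin (B2m) and takes up a peptide that the TAP transporter, of which Tap1 is a subunit, has moved into the endoplasmic reticulum. Class II molecules show peptides from endocytosed protein to CD4 T cells and are made mainly by dendritic cells, B cells and macrophages. The alpha chain (H2-Aa) pairs with the beta chain (H2-Ab1), and the invariant chain Cd74 blocks their groove until the complex reaches the endosome. H2-Eb1 encodes the beta chain of the E molecule, whose alpha chain gene is defective in C57BL/6 mice. The liver's class II transcripts are usually ascribed to its resident macrophages, dendritic cells and endothelium.

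Most of these genes lie together in the major histocompatibility complex on chromosome 17 (GRCm38.p6, RefSeq positions). H2-K1 runs on the minus strand from 33996012 to 34000619, Tap1 on the plus strand from 34187556 to 34197225, and H2-Ab1 on the plus strand from 34263227 to 34269418. H2-Aa lies on the minus strand from 34282744 to 34287823, H2-Eb1 on the plus strand from 34305867 to 34316674, and H2-D1 on the plus strand from 35263094 to 35267497. B2m stands outside the complex, on the plus strand of chromosome 2 from 122147687 to 122153082. The deposited table lists H2-K1 from 305785, a start that RefSeq does not give, so RefSeq positions are used for these genes.

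Sequences around the transcription start of heavy chain genes and of class II chain genes are shown as a description. Their relation to the levels was not tested. RefSeq windows of 300 bases, from 250 bases before to 50 after a transcription start (GRCm38.p6), were at hand for 6 of the 8 members, and 4 of these are printed 5′ to 3′ on the gene's strand. They are chr17:34000298-34000597 (H2-K1, minus strand, the first of 2 starts listed), chr17:35262844-35263143 (H2-D1, plus strand), chr17:34287774-34288073 (H2-Aa, minus strand) and chr17:34305617-34305916 (H2-Eb1, plus strand). Capitals mark matches, on either strand, to 5 short motifs that were cut from the printed windows with the sequences in view.
H2-K1: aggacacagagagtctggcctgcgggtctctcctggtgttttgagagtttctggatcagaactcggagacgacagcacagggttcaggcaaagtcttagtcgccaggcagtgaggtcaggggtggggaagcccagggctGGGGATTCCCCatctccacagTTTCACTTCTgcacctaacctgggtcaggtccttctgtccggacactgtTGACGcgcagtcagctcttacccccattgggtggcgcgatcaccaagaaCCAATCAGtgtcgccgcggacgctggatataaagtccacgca
H2-D1: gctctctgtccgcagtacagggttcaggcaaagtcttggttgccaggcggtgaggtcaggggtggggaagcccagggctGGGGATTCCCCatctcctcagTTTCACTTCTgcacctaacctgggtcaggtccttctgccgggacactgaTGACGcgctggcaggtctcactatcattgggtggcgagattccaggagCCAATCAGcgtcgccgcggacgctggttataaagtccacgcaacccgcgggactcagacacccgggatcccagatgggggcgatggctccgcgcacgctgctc
H2-Aa: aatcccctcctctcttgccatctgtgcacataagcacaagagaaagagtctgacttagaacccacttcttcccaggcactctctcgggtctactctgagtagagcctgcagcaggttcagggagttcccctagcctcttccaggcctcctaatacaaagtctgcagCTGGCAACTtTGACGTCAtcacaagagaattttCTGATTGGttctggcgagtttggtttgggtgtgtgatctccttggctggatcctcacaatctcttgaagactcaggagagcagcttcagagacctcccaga
H2-Eb1: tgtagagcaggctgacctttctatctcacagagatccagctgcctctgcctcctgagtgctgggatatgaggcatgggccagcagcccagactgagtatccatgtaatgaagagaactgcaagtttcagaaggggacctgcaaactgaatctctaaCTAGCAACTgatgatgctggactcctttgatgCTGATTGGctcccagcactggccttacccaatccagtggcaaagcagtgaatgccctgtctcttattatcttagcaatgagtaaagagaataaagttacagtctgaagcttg

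GGGGATTCCCC, the form of the NF-kappa B site in class I enhancer A, matched in the H2-K1 and H2-D1 windows and in no other of the 6 members searched, against 0.0304% of all 32851 windows. The same 2 windows held TTTCACTTCT, a form of the interferon-stimulated response element, which matched in 0.155% of all windows. In the H2-D1 window these lay at -171 to -161 and at -150 to -141 from the start. CTNGCAACT, from the X box of class II promoters, matched in H2-Aa (-84 to -76) and H2-Eb1 (-94 to -86) alone among the 6 windows, and in 0.898% of all. CTGATTGG, the Y box read by NF-Y, matched in 5 of the 6 (H2-K1, H2-D1, Tap1, H2-Aa and H2-Eb1) and in 4.10% of all windows. It was on the coding strand in H2-Aa and H2-Eb1 and on the opposite strand in H2-K1, H2-D1 and Tap1. In H2-K1 it lay after the start used, at 9 to 16, and in H2-D1 before it, at -53 to -46. TGACG, a core shared by cyclic AMP response elements, matched in 5 of the 6 (all but H2-Eb1) and in 20.8% of all windows, and its 2 matches in H2-Aa overlap. The H2-K1 and H2-D1 windows, set against each other with an offset of 60 bases and no gaps, had the same base at 176 of 240 positions (73.3%). The motifs were cut from these windows: GGGGATTCCCC, TTTCACTTCT and TGACG from H2-K1, CTGATTGG from H2-Aa, and CTNGCAACT from H2-Aa and H2-Eb1. A match in a motif's source window was therefore fixed in advance. The other printed windows were in view when the motifs were chosen, so matches there are no independent test either. The shares of all windows say how common each motif is and do not test these matches. All these matches describe the letters only.

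Levels were compared between genes on the per-length scale of TPM, in which a library's length-corrected counts are scaled to a common total. B2m was highest, at 3666, 3209 and 3243 TPM in wild type replicates 1, 2 and 3 and 3395, 2983 and 2462 TPM in knockout-labelled replicates 1, 2 and 3. Knockout-labelled replicate 3 was the lowest and wild type replicate 1 the highest, and the groups overlapped. Averaged over the 6 libraries B2m ranked 41st of all 15953 genes.

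H2-K1 stood at 738.2, 794.1 and 792.4 TPM in wild type and 888.9, 756.6 and 762.3 TPM in knockout-labelled libraries. Knockout-labelled replicate 1 was the highest, and the other 2 knockout-labelled libraries lay within the wild type range. H2-D1, the other classical heavy chain of this strain, was at 378.6, 412.1 and 399.1 TPM in wild type and 400.6, 381.6 and 388.1 TPM in knockout-labelled libraries. Its 6 values spread least of all members, with a coefficient of variation of 3.26%. Tap1 was the lowest member, at 10.9, 12.8 and 8.70 TPM in wild type and 13.1, 9.32 and 8.31 TPM in knockout-labelled libraries, with overlapping groups.

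Among class II genes Cd74 was highest, at 83.0, 100.8 and 111.4 TPM in wild type and 88.8, 93.8 and 81.6 TPM in knockout-labelled libraries. H2-Aa was at 52.8, 44.4 and 59.4 TPM in wild type and 42.8, 45.8 and 33.7 TPM in knockout-labelled libraries. H2-Ab1 was at 34.8, 33.1 and 42.0 TPM in wild type and 31.0, 31.3 and 23.2 TPM in knockout-labelled libraries. In TPM the H2-Ab1 groups did not overlap, with knockout-labelled libraries lower, as in 15.3% of the genes tested between groups, and the groups of the other 7 members overlapped. The median log2 difference of those genes on log2(TPM + 1) was itself -0.11. H2-Eb1 was at 12.3, 16.3 and 20.99 TPM in wild type and 15.8, 15.7 and 11.9 TPM in knockout-labelled libraries.

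**Figure D1:**
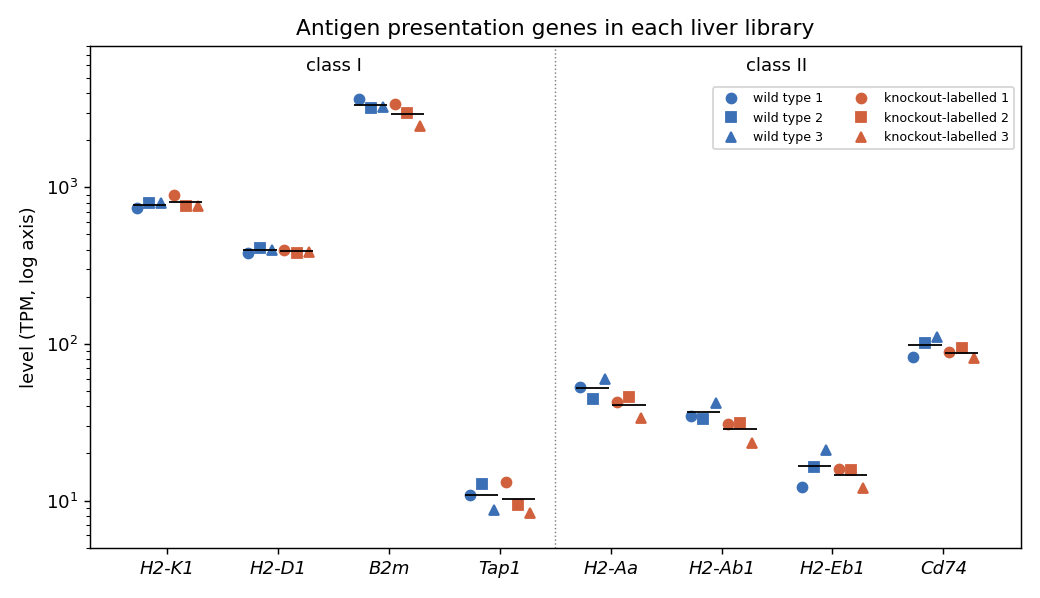
Level of each gene in TPM (log axis) in the 6 libraries; blue symbols are wild type, orange symbols knockout-labelled, the symbol shape gives the replicate number and black lines are group means. The class I genes other than Tap1 sit above all class II genes, from 378.6 TPM upward, while Tap1 lies beside H2-Eb1.

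The order of the 8 genes was the same in each of the 6 libraries: B2m, H2-K1, H2-D1, Cd74, H2-Aa, H2-Ab1, H2-Eb1 and Tap1. The ranges of neighbours in this order overlapped for H2-Aa with H2-Ab1 and for H2-Eb1 with Tap1. The other neighbours did not overlap, with gaps in mean level of 4.01-fold from B2m to H2-K1, 2.01-fold from H2-K1 to H2-D1, 4.22-fold from H2-D1 to Cd74, 2.01-fold from Cd74 to H2-Aa and 2.10-fold from H2-Ab1 to H2-Eb1.

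The 2 class I heavy chains together exceeded the 3 class II chains in every library. Their summed level was 1117, 1206 and 1192 TPM in wild type and 1289, 1138 and 1150 TPM in knockout-labelled libraries, against class II sums of 99.9, 93.8 and 122.4 TPM and 89.6, 92.8 and 68.9 TPM. The class I sum spread little (coefficient of variation 5.27% over 6 libraries) and the class II sum more (18.3%). The mean log2 ratio of class I to class II was 3.66 ± 0.27 (SD, n = 6), or 12.7-fold, and it was positive in 6 of 6 libraries. An exact two-sided sign-flip permutation test gave p = 0.031, the smallest that 6 libraries can give. That p-value follows from the 6 equal signs alone. The members were chosen with earlier results of these data known, so it is no independent support. The size of the ratio depends on what is summed: it was 23.2-fold with B2m and Cd74 included, 19.8-fold from mean log2 TPM and 36.2-fold with every H2-K, H2-D, H2-Q and H2-T gene in class I.

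The class I to class II ratio was 11.2, 12.9 and 9.74 in the wild type group against 14.4, 12.3 and 16.7 in the knockout-labelled group. The groups overlapped, since knockout-labelled replicate 2 (12.3) came below wild type replicate 2. On the log2 scale class II over class I was -3.48 ± 0.20 in wild type and -3.84 ± 0.22 in knockout-labelled libraries (SD, n = 3), a difference of -0.36 with p = 0.2 in an exact two-sided permutation test, whose smallest p is 0.1 with 3 against 3 libraries. Without wild type replicates 1 and 3, which leaves 1 wild type library, the difference was -0.16. With B2m and Cd74 added to the sums it was -0.10. Across the 6 libraries the log2 sums of the 2 classes had Pearson r = 0.07 (exact permutation p = 0.917) and Spearman rho = -0.20 (exact permutation p = 0.714), and r = 0.53 without knockout-labelled replicate 1 and wild type replicate 1, the libraries farthest from the median class I sum. This was the only relation across libraries that was tested, and with 3 libraries it was not computed within a group.

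B2m transcripts outnumbered those of H2-K1 and H2-D1 together in each library. Other class I heavy chain genes, such as H2-Q10, were not in that sum. The ratio of B2m to the 2 heavy chains was 3.28, 2.66 and 2.72 in the wild type group against 2.63, 2.62 and 2.14 in the knockout-labelled group, with the highest value in wild type replicate 1 and the lowest in knockout-labelled replicate 3. H2-K1 exceeded H2-D1 by 1.93-fold to 1.99-fold in 5 libraries and by 2.22-fold in knockout-labelled replicate 1. In counts, H2-D1 made up 32.3% of the pair in that library (exact 95% binomial interval 31.8% to 32.9%) and 34.8% to 35.5% in the others. Such intervals cover counting error only. The heavy chain genes resemble each other: 8.79% of the 50-base stretches of the longest H2-K1 transcript and 14.3% of those of H2-D1 also occur in transcripts of other genes (GENCODE M21), which falls to 0% and 4.64% at 100 bases. H2-D1 shared most with H2-Q1, in 7.40% of its stretches at 50 bases and 4.24% at 100. Expected counts of H2-D1 were not whole in 6 of 6 libraries, and those of H2-K1 in 1 of 6. The assignment of reads to H2-D1 is therefore uncertain, and that to H2-K1 less so.

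The alpha and beta chains of the A molecule kept nearly 1 ratio while their levels moved. H2-Aa varied 1.76-fold between libraries and H2-Ab1 1.81-fold, yet H2-Aa over H2-Ab1 stayed between 1.34 and 1.52. In counts H2-Ab1 made up 42.8% to 45.9% of the pair, and the exact 95% binomial intervals of the 6 libraries overlapped. H2-Eb1 followed H2-Aa less closely. Of the counts of H2-Eb1 and H2-Aa, H2-Eb1 took 28.0% in wild type replicate 1 (242 of 865 counts, exact 95% interval 25.0% to 31.1%). In wild type replicates 2 and 3 the share was 37.9% (34.6% to 41.2%) and 37.0% (34.2% to 40.0%), and in knockout-labelled libraries it was 38.1%, 36.3% and 37.0%. The interval of wild type replicate 1 thus lay below those of the other 5 libraries, a comparison made after the values were seen.

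**Figure D2:**
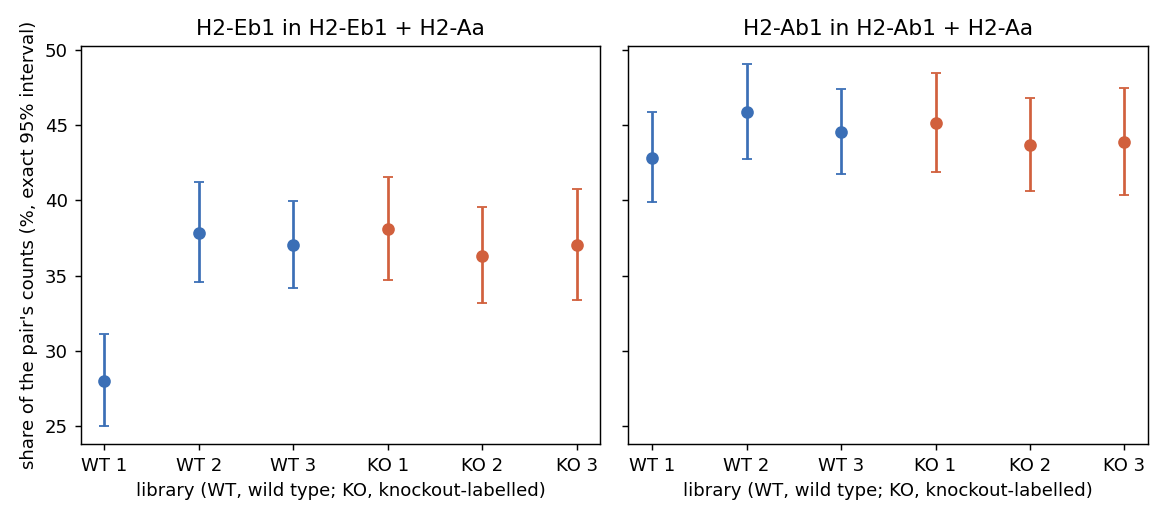
Share of a pair's counts taken by H2-Eb1 (left, with H2-Aa) and by H2-Ab1 (right, with H2-Aa) in each library, in percent, with exact 95% binomial intervals; blue is wild type and orange knockout-labelled. H2-Eb1 is at 28.0% in wild type replicate 1 and at 36.3% to 38.1% elsewhere, while H2-Ab1 stays at 42.8% to 45.9%.

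Cd74 also stood low against H2-Aa in wild type replicate 1. Cd74 over H2-Aa was 1.57 in that library, 2.27 and 1.88 in wild type replicates 2 and 3, and 2.08, 2.05 and 2.42 in knockout-labelled libraries. Of the counts of H2-Eb1 and Cd74, H2-Eb1 took 16.6% to 20.4%, with 16.9% in wild type replicate 1, inside the range of the others. In that library H2-Aa and H2-Ab1 were therefore high relative to H2-Eb1 and Cd74. Wild type replicate 1 also had 150 counts of the 11 sparse intestinal genes; their part in the ratios was not tested. In wild type replicate 3, with 222 such counts, the H2-Eb1 share was 37.0%.

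**Figure D3:**
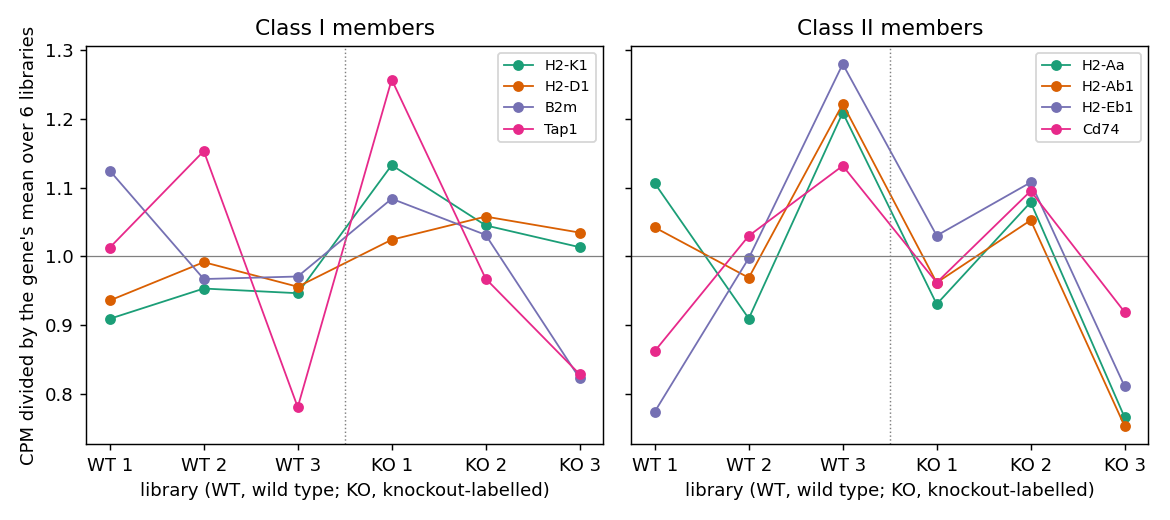
CPM (counts scaled to a common library total by trimmed mean of M values, TMM) of each gene divided by its mean over the 6 libraries, for class I (left) and class II members (right); lines join the values of 1 gene and show no order in time. The 4 class II genes peak together in wild type replicate 3, and H2-Aa with H2-Ab1 part from H2-Eb1 with Cd74 in wild type replicate 1.

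Class II genes shared their highest library, and in TPM their lowest. Wild type replicate 3 was highest for 4 of the 4 class II genes in TPM and in CPM. Knockout-labelled replicate 3 was lowest for 4 of 4 in TPM and for 2 of 4 (H2-Aa and H2-Ab1) in CPM, where wild type replicate 1 was lowest for H2-Eb1 and Cd74. For class I the highest library in CPM was knockout-labelled replicate 1 for H2-K1 and Tap1, knockout-labelled replicate 2 for H2-D1 and wild type replicate 1 for B2m. Wild type replicate 1 was the lowest for H2-K1 and H2-D1 in TPM and in CPM. The difference between the classes was not tested. For H2-Eb1, the class II gene with the fewest counts (242 to 405), the coefficient of variation of CPM was 18.9%, where counting alone would give 5.68%.

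The groups were compared on TMM-scaled counts, with edgeR's quasi-likelihood test and Benjamini-Hochberg adjustment over 12033 genes, which the 8 members all entered. None of the 8 members passed the adjusted threshold of 0.05 (0 genes by edgeR, and 0 by DESeq2), where 0.00831% of all genes did by edgeR and 0.233% by DESeq2. At an unadjusted p under 0.05 there were 0 members, against 5.15% of all genes. With limma-trend on log2(TPM + 1), 2 members, H2-Aa and H2-Ab1, had an unadjusted p under 0.05, as had 1160 of all genes, with differences of -0.35 and -0.36 and adjusted p = 0.513 and 0.512. Adjusted p-values ran from 0.973 to 0.994. Log2 fold changes of knockout-labelled over wild type were positive for 3 members and negative for 5, with a median of -0.04 against -0.0022 over all genes tested. In CPM the groups did not overlap for 2 members, H2-K1 and H2-D1, against 10.8% of all genes, and in these 2 the knockout-labelled libraries were the higher ones, as in 6.19% of all genes.

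H2-K1 had 789.7, 828.0 and 822.1 CPM in wild type and 984.1, 907.9 and 880.3 CPM in knockout-labelled libraries, a log2 fold change of 0.18 with a 95% interval from -0.03 to 0.40 (edgeR adjusted p = 0.973). Each knockout-labelled library was above each wild type library in CPM, which was not so in TPM. H2-D1 had 429.7, 455.4 and 438.9 CPM against 470.4, 485.8 and 475.1 CPM, a log2 fold change of 0.11 (-0.09 to 0.31) that was -0.02 on log2(TPM + 1). Relative to the median of all genes on that scale, -0.11, the value of H2-D1 stays positive. B2m had a log2 fold change of -0.06 (-0.35 to 0.23) and Tap1 one of 0.05 (-0.37 to 0.47).

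Class II genes had negative log2 fold changes in 4 of 4 cases, and none passed the test (0 genes). H2-Ab1 had 25.8, 23.96 and 30.2 CPM in wild type and 23.8, 26.0 and 18.6 CPM in knockout-labelled libraries, a log2 fold change of -0.22 (-0.55 to 0.10). The groups of H2-Ab1 overlapped in CPM. H2-Aa had 34.4, 28.3 and 37.6 CPM against 28.9, 33.5 and 23.8 CPM, a log2 fold change of -0.22 (-0.55 to 0.12). Leaving out 1 library at a time moved the values of H2-Aa from -0.34 to -0.10 and those of H2-Ab1 from -0.33 to -0.10. With wild type replicate 2 as the only wild type library, assumed to vary like the others, H2-Aa had 0.01. H2-Eb1 and Cd74 had log2 fold changes of -0.05 (-0.48 to 0.38) and -0.02 (-0.29 to 0.24), which turned to 0.14 and 0.06 without wild type replicate 3. The intervals leave room for changes of either sign in each of the 8 genes.

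**Figure D4:**
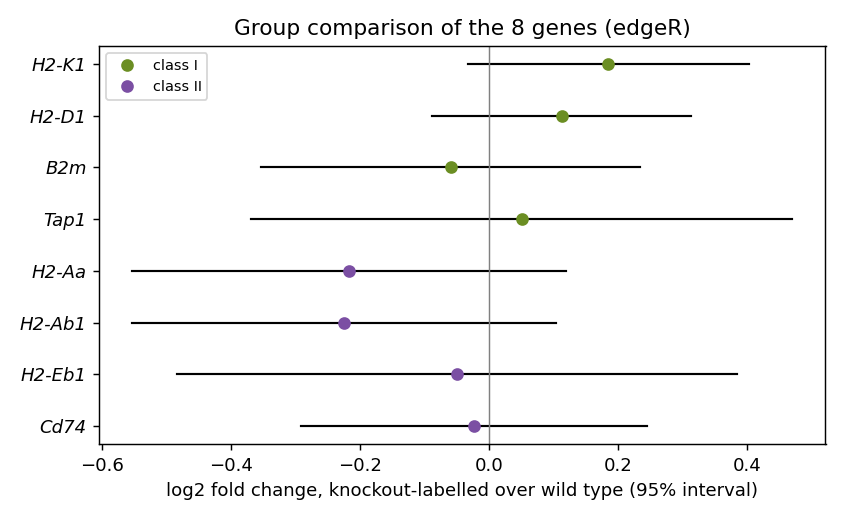
Log2 fold change of knockout-labelled over wild type libraries for each gene, with 95% intervals from edgeR (3 libraries a group); green is class I, purple class II. Each of the 8 intervals includes 0, from 0.18 for H2-K1 at the top to -0.22 for H2-Aa and H2-Ab1.

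Other genes of the class I route were followed as a list of 15 genes for peptide supply and loading, all of them tested. None passed the threshold (0 higher and 0 lower, 0 at an unadjusted p under 0.05), 11 values were positive and 4 negative, and the median log2 fold change was 0.05. Calr and Pdia3, chaperones of the loading complex, were the most abundant, at 438.7, 411.0 and 475.7 TPM and at 220.4, 197.2 and 235.6 TPM in wild type and at 477.2, 437.0 and 453.2 TPM and 231.5, 224.3 and 218.9 TPM in knockout-labelled libraries. The smallest unadjusted p-values belonged to Psmb8, a subunit of the immunoproteasome, with a log2 fold change of 0.28 (SE 0.14), and to Tap2, the partner of Tap1, with 0.23 (SE 0.12). Tap1 over Tap2 in TPM was 0.910, 0.856 and 0.695 in the wild type group against 0.849, 0.682 and 0.634 in the knockout-labelled group.

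Among 18 nonclassical and class I-like genes, 13 were tested and none passed (0 higher, 0 lower, 0 at an unadjusted p under 0.05 by edgeR; 7 positive, 6 negative, median 0.03). H2-Q10, a class I gene known for its secreted product from liver, outranked the classical heavy chains, at 1868, 1803 and 1890 TPM in wild type and 1961, 1701 and 1838 TPM in knockout-labelled libraries. It stood at 1.49 to 1.67 times the sum of H2-K1 and H2-D1. H2-T23, which encodes Qa-1, ranged from 159.4 to 190.2 TPM and had a log2 fold change of 0.16 (SE 0.09). Fcgrt, the neonatal Fc receptor gene, had one of 0.17 (SE 0.11). H2-Q genes are near-identical copies, so their single values are uncertain.

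Of 20 symbols listed for class II loading and regulation, 18 were in the table and 14 were tested, and none passed (0 higher, 0 lower, 0 at an unadjusted p under 0.05 by edgeR; 5 positive, 9 negative, median -0.09). Ciita, the class II transactivator, had 11, 14 and 12 counts in wild type and 9, 7 and 13 counts in knockout-labelled libraries. At this depth a change of Ciita was not resolved (log2 fold change -0.28, SE 0.38). Lgmn, an endosomal protease gene, and March8, a ubiquitin ligase gene, were the most abundant, at 36.5 to 40.8 TPM and 31.4 to 39.0 TPM. Ifi30, a lysosomal thiol reductase gene, had the smallest unadjusted p, with a log2 fold change of 0.24 (SE 0.12).

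Interferon gamma raises class I and class II genes, and 23 genes of its receptor and response were listed for that reason. None passed edgeR's adjusted threshold (0 higher, 0 lower). At an unadjusted p under 0.05 there were 4 genes, all lower, against 5.15% of all genes. Log2 fold changes were positive for 6 and negative for 17, and the median was -0.13. Of these 23, 4 did not overlap with knockout-labelled libraries lower, against 4.63% of all genes. Another 1, the receptor gene Ifngr1, did not overlap with knockout-labelled libraries higher, against 6.19% of all genes. These same 4 had the unadjusted p under 0.05: Cxcl9, Igtp, Irgm2 and Tgtp1, the last with a near-identical neighbour, Tgtp2, that makes its count uncertain. Cxcl9, a T cell chemokine gene, had 230, 193 and 348 counts in wild type and 123, 136 and 104 counts in knockout-labelled libraries, a log2 fold change of -1.01 (SE 0.23, edgeR adjusted p = 0.739). Igtp, an immunity-related GTPase gene, had 19.0, 18.2 and 23.4 TPM against 14.4, 13.2 and 14.2 TPM, with a log2 fold change of -0.40 (SE 0.12). Iigp1 and Irgm1, the most abundant GTPases of the list, had log2 fold changes of -0.08 (SE 0.15) and -0.16 (SE 0.12). Among 7 costimulation genes 3 were tested and none passed (0 genes, 0 also at an unadjusted p under 0.05 by edgeR), and Cd86 and Icam1 had log2 fold changes of 0.45 (SE 0.27) and 0.30 (SE 0.23).

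Marker lists of cells that make class II are given beside these values, and their part in them was not tested. Kupffer cell markers had positive log2 fold changes in 12 of 12 genes, with a median of 0.32 and 0 past the adjusted threshold. At an unadjusted p under 0.05 by edgeR there were 8 of them, against 5.15% of all genes. In CPM 8 did not overlap between groups, with knockout-labelled libraries higher, against 6.19% of all genes. The summed CPM of the 12 was 317.1 to 349.3 in wild type and 397.4 to 428.2 in knockout-labelled libraries. Clec4f, a lectin gene of Kupffer cells, had 27.5, 31.5 and 32.2 TPM against 37.0, 34.6 and 35.6 TPM, and Csf1r, the receptor gene of macrophage growth factor, had 9.84, 11.2 and 11.7 TPM against 13.8, 12.9 and 12.4 TPM (log2 fold changes 0.37 and 0.40, edgeR adjusted p = 0.739 for each). The class II log2 fold changes were negative in 4 of 4 genes, but each interval included 0. Those of H2-Eb1 and Cd74 changed sign without wild type replicate 3. How they relate to the Kupffer list was not tested. The 10 dendritic cell markers summed to 4.80 to 5.89 CPM in wild type and 5.54 to 7.26 CPM in knockout-labelled libraries, and 4 of them were at 0 in some library. The 9 B cell markers summed to 4.08 to 6.91 CPM and 2.96 to 4.31 CPM, with Pax5, a defining gene, at 2 to 8 counts. The 11 T and NK cell markers summed to 4.53 to 6.22 CPM and 5.34 to 6.22 CPM, and the 9 sinusoidal endothelial markers to 291.0 to 359.7 CPM and 331.0 to 349.9 CPM. The 7 cholangiocyte markers summed to 4.09 to 8.13 CPM and 4.01 to 6.28 CPM, with the highest sum in wild type replicate 3. Hepatocyte markers, 9 of 10 in the table, had a median log2 fold change of -0.06 and 0 past the threshold.

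The genes whose pattern over the 6 libraries was nearest to the mean log2 CPM of the 4 class II genes, among 11321 genes with a mean of at least 1 CPM, were Cyren (Pearson r 0.985), Meis2 (0.984), Pdcd5 (0.981), Serf1 (0.977) and Pde3b (0.974). Meis2, a homeobox gene, had 3.97, 4.14 and 6.00 CPM in wild type and 4.55, 5.35 and 3.25 CPM in knockout-labelled libraries, highest in wild type replicate 3 and lowest in knockout-labelled replicate 3. For the 4 class I genes, those among the nearest were Tmem143 (0.991), Klkb1 (0.981), Rnf123 (0.981) and Nfib (0.978). Pairs of class I members had Pearson r from -0.35 to 0.79 (median 0.27) in log2 CPM, so their mean stands for no single pattern. Pairs of class II members had r from 0.44 to 0.96. Klkb1, the plasma prekallikrein gene, had 272.5, 276.5 and 254.4 CPM in wild type and 316.9, 290.4 and 258.8 CPM in knockout-labelled libraries. The coefficients rest on 6 libraries that all genes share and are given as a description. None of the genes named for their pattern is in the lists of presentation or interferon genes.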

How the data were processed

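Liver RNA of 3 wild type and 3 Cgref1 KO mice was enriched for mRNA and sequenced, per the labels' protocols. The authors used HISAT, Bowtie2, RSEM and DESeq2, per the submitters' processing notes; the sources used here give no versions, roles, strand or read length. The authors deposited expected counts (92.3% to 92.9% whole in a library), TPM values and FPKM values per library, per the file headers. They also deposited a log2 fold change, a p-value and a q-value per gene, which are not printed here. Of the other columns, 15 (group means and comparisons of single libraries) were not used. All 15803 genes matched by identifier stood on the same chromosome in GRCm38.p6.

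Expected counts were rounded. Genes were kept by filterByExpr (minimum count 10), scaled by TMM factors of 0.955 to 1.05 and tested with edgeR 4.0.16 (R 4.3.3) without a block; the biological coefficient of variation was 15.8%. DESeq2 1.42.0, limma 3.58.1, other scalings and filters, the replicate number as a block, the summed class I genes and each library left out were alternatives. The edgeR step was tested on simulated counts with known changes, and the other steps were not. Members and gene lists were chosen with earlier results of these data known. Besides the members, up to 2 genes per list with the smallest p and 2 with the highest TPM, at a mean of at least 1 CPM, are named, and the 5 genes nearest in pattern to each class, of which 1 is not reported here; other names were added with their values in view. The total of 17627734 to 18366443 counts sets the counting error.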

Additional observations from a re-analysis of the deposited data

How the results depend on the processing

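None of the 8 members was called under any of the 19 alternatives (0 genes in each), and of 152 recomputed member values 135 kept their direction. Over all genes edgeR called 1 gene; it called 0 with a mean of at least 5 CPM and 0 without wild type replicates 1 and 3 together, where the wild type arm is 1 library that is assumed to vary like the others, so that this 0 says little; DESeq2 called 28, and leaving out 1 library gave 1 to 5, the 5 when knockout-labelled replicate 1 was omitted; the cause was not tested. With the replicate number as a block edgeR called 34 genes and 0 members. The labels do not say that same-numbered libraries belong together, so the numbers were not taken as pairs. Deviations of same-numbered libraries correlated at 0.28, 0.06 and 0.35, and those of different-numbered ones at -0.30 to -0.0060. Deviations were taken from the mean of each group, so these correlations are not independent of each other. Each library correlated best with its own number, and whether the numbers mark a shared origin was not tested. The values that changed sign all belonged to genes that were not called. H2-D1 had -0.0231 on log2(TPM + 1) and -0.0231 on log2(TPM + 0.1). B2m had 0.0069 when wild type replicate 1 was left out, 0.051 when knockout-labelled replicate 3 was, and 0.0017 with wild type replicates 1 and 3 both omitted. Tap1 had -0.032 with library totals, -0.078 on log2(TPM + 1), -0.085 on log2(TPM + 0.1), -0.030 on log2(FPKM + 1), -0.09 without wild type replicate 3, -0.13 when knockout-labelled replicate 1 was omitted and -0.20 when wild type replicates 1 and 3 were. H2-Aa had 0.0079 without wild type replicates 1 and 3. H2-Eb1 had 0.14 and 0.07, and Cd74 0.065 and 0.03, without wild type replicate 3 and knockout-labelled replicate 3 in turn; leaving out 1 library gave -0.34 to -0.10 for H2-Aa, -0.33 to -0.10 for H2-Ab1, -0.22 to 0.14 for H2-Eb1, -0.13 to 0.06 for Cd74, -0.14 to 0.05 for B2m and -0.13 to 0.18 for Tap1. The log2 difference of class II over class I was -0.36, from -0.47 to -0.25 without 1 library, and -0.10 with B2m and Cd74 in the sums. The log2 level of class I over class II was 3.66, from 3.58 to 3.74 without 1 library, and 4.54 with B2m and Cd74, 4.30 from mean log2 TPM and 5.18 over every H2-K, H2-D, H2-Q and H2-T gene. The correlation of the 2 class sums was -0.29 in CPM and ran from -0.22 to 0.28 without 1 library. For H2-Eb1 the spread between libraries (18.9% in CPM) and not counting error (5.68%) limits what its comparison can resolve.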
